A study of Mus musculus with 36 samples.

Results

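Zscan4c, Zscan4d, Zscan4f, Dub1a and Zfp352, 5 genes that mark the two-cell-like state of mouse embryonic stem cells, were followed over 9 days of differentiation. They were taken by name, all 5 had a line in the deposited table of 25965 genes, and they had been put forward because earlier results of these data showed them high in late cultures labelled double and nearly absent from those labelled single. Their difference between the labels is therefore given as a description and carries no test. RNA-seq libraries came from 2 female Xmas mESC lines, X14 and X18, of strain C57/Bl6, derived from mice that carry a GFP and a mCherry reporter in the X-linked gene Hprt. Cells grown in 2i, a medium with inhibitors of MEK and GSK3, were weaned into DME HiHi medium and harvested on each day from 0 to 8, with 1 culture labelled double and 1 labelled single per line, which gave 4 libraries a day and 36 in all. What the words double and single stand for is not explained in the labels, so both are used here as names. Each line under each label is treated as 1 series of harvests over time, called a culture here, so replication between the labels rests on 2 lines. Nothing in the labels says whether the harvests of different days came from the same or from separate cultures.

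The two-cell-like state takes its name from the 2-cell mouse embryo, in which the embryonic genome is first transcribed. In cultures of mouse embryonic stem cells, a small and changing fraction of the cells switches on the same genes for a short time and then switches them off. The Zscan4 genes are a tandem family on chromosome 7 that code for proteins with a SCAN domain and zinc fingers and are known for a part in telomere maintenance. Dub1a belongs to the Dub/Usp17 family of deubiquitinating enzymes, and Zfp352 codes for a zinc finger protein of the early embryo. In bulk RNA, a change in the number of cells in the state and a change in the RNA per cell cannot be told apart.

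The Zscan4 genes are near-identical copies, and this sets how far reads can be assigned to one of them. In mm10, Zscan4c lies at chr7:11005722-11010547 on the + strand, Zscan4d at chr7:11161374-11166182 on the - strand and Zscan4f at chr7:11397915-11402741 on the + strand. Dub1a, named Usp17lb in RefSeq, lies at chr7:104840257-104842603 on the - strand, and Zfp352, the member outside chromosome 7, at chr4:90218820-90225702 on the + strand. To show the likeness, 100 bases of the coding part of exon 4 are printed for the 3 Zscan4 genes from the GENCODE M21 transcripts (GRCm38), chosen as the coding stretch with the most differing bases. Capitals mark the 8 positions at which the copies are not all the same.
Zscan4c, chr7:11009141-11009240, + strand: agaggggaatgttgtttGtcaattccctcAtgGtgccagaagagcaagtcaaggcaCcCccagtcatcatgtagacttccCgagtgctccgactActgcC
Zscan4d, chr7:11162677-11162776, - strand: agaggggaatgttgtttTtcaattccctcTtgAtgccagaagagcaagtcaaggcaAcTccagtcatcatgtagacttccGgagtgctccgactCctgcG
Zscan4f, chr7:11401334-11401433, + strand: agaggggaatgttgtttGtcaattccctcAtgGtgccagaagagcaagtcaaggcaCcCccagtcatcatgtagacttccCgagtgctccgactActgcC

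In this stretch Zscan4c and Zscan4f were identical and Zscan4d stood apart. Other stretches did not separate the 3 genes, such as the following 100 bases of the coding part of exon 2, which held 0 differing positions.
Zscan4c, Zscan4d and Zscan4f, printed at chr7:11006685-11006784 of Zscan4c: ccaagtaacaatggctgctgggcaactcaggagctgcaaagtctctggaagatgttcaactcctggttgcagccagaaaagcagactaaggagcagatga
The libraries were read in single reads of 75 bases. Of all 75-base windows of the longest GENCODE transcript, 78.6% of Zscan4c, 39.5% of Zscan4d and 92.4% of Zscan4f occurred without a mismatch in a transcript of another gene. The share was 15.2% for Dub1a, whose windows recurred in Usp17la, Usp17lc, Usp17ld, Usp17le and Gm5053, and 2.86% for Zfp352, in the pseudogene Zfp353-ps. A read from such a window cannot be placed on 1 gene, and the sources used here do not say how reads with several alignments were counted. Values of a single Zscan4 gene are therefore uncertain, and the sum over the copies is given beside them. For Zscan4f the transcript compared had 1829 bases, but reads were counted over an exon length of 2430 bases. Its share therefore does not cover all of the counted sequence.

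**Figure D1:**
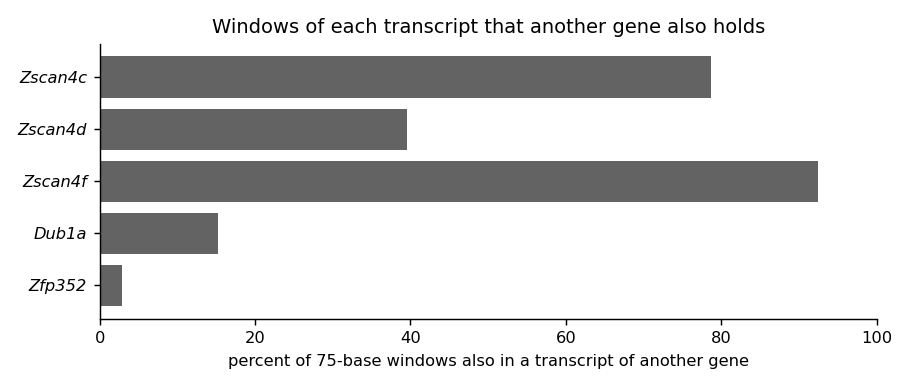
Horizontal bars give, for the longest GENCODE transcript of each gene, the percent of its 75-base windows that also occur without a mismatch in a transcript of another gene. Zscan4f (92.4%) and Zscan4c (78.6%) share most of their windows, Zscan4d 39.5%, Dub1a 15.2% and Zfp352 2.86%.

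The promoters of the Zscan4 copies were also compared. The 216 bases printed here lie before the annotated starts in the RefSeq promoter table (GRCm38.p6) and are shown because the copies moved together. Capitals mark the 7 positions that differ among the 3 genes.
Zscan4c, chr7:11005506-11005721, + strand: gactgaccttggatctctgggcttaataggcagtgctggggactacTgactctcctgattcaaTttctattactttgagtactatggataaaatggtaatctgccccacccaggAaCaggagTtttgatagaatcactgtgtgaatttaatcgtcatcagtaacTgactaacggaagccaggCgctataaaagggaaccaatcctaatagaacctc
Zscan4d, chr7:11166183-11166398, - strand: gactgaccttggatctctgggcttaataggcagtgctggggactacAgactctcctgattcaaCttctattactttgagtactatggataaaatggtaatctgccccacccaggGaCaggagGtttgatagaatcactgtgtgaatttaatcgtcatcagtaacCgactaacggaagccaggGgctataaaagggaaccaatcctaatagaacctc
Zscan4f, chr7:11397699-11397914, + strand: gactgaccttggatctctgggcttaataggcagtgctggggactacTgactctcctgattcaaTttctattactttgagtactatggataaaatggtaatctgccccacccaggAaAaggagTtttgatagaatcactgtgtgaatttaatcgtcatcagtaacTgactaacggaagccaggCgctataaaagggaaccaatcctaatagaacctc

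Zscan4c and Zscan4f differed at 1 of these bases (99.5% identity), Zscan4c and Zscan4d at 6 (97.2%), and Zscan4d and Zscan4f at 7 (96.8%). The letters TATAAA stood once on the gene's strand in the 250 bases before the start of Zscan4c, Zscan4d, Zscan4f and Dub1a, and 12.4% of 32851 RefSeq promoter windows of that length held them on either strand. Zfp352 did not hold them. The last 150 bases before the RefSeq start of Dub1a, which lies a little inside the gene as placed in mm10 above, are printed with TATAAA in capitals.
Dub1a, chr7:104842584-104842733, - strand: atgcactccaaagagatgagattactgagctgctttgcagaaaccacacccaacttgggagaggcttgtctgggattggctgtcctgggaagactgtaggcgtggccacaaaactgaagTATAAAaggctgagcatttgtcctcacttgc
The window of Zfp352 was different and held 9 copies of the letters GACAACACAC, its most frequent run of 10, which 0.0426% of the windows held on either strand. They are in capitals in its 250 bases before the start.
Zfp352, chr4:90218570-90218819, + strand: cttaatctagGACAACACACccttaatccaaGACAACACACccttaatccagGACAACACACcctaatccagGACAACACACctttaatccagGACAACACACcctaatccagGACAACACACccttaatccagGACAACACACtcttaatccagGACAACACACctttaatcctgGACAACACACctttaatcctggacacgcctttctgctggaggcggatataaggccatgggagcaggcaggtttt

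Depth limited what could be read from genes this rare. The libraries held 612740 to 2445826 reads in genes (median 1297944), so that 3 reads, taken as the floor, corresponded to 1.04 to 3.90 RPM, the reads of a gene scaled to the same library size in all libraries. The day 0 libraries of line X14 went against their labels: the balance of X-linked over autosomal genes, as log2 double minus single, was -1.29 in that pair and 0.19 to 1.17 in the other 17 pairs. The main values on the labels and on early days are given with and without these libraries. On days 6 to 8 the depth of the labels overlapped, with 1022197 to 1776400 reads in the libraries labelled double and 719000 to 1844587 in those labelled single.

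Zscan4d, the copy with the most unshared sequence, had 384 reads over the 36 libraries and at least 1 read in 30 of them. Summed over both lines, the libraries labelled double held 13, 27, 13, 13, 0, 4, 33, 64 and 35 reads on days 0 to 8. Those labelled single held 12, 58, 34, 48, 18, 8, 2, 2 and 0 reads. In RPM the gene was higher in the single culture of both lines on days 1 to 4, and higher in the double culture of both lines on days 6 to 8. On day 5 the lines differed in direction, and the means were 1.92 RPM in double and 1.63 RPM in single. On day 7, at its highest, Zscan4d stood at 23 RPM in X14 double and 15.4 RPM in X18 double, against 1.77 RPM in X14 single and 0 reads in X18 single. Over days 6 to 8 the double libraries ranged from 8.70 to 23 RPM (median 12.1) and the single libraries from 0 to 2.47 RPM (median 0), and the 2 groups did not overlap. Pooled reads gave a 27.4-fold ratio (95% exact interval of the counts 10.4 to 102). This interval and those that follow cover counting error alone, and reads without molecular identifiers are not independent molecules.

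Zscan4c followed the same course with 203 reads. Libraries labelled double held 6, 6, 8, 0, 0, 3, 25, 33 and 39 reads on days 0 to 8, and libraries labelled single 10, 17, 27, 20, 5, 1, 1, 2 and 0. From day 6 double cultures were higher in both lines, and on day 8 the gene stood at 12.5 RPM in X14 double and 13.1 RPM in X18 double with 0 reads in both single libraries. Over days 6 to 8 the 6 double libraries lay between 4.84 and 13.1 RPM (median 10.4) and the 6 single libraries between 0 and 0.884 RPM (median 0.31), again without overlap. With 97 reads against 3, the ratio was 26.8-fold (interval 8.91 to 132).

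Zscan4f was the rarest of the 3, with 75 reads in all and 18 libraries without a read. A count of 0 at this depth does not show that the gene was off. The libraries labelled double held 0, 2, 1, 0, 0, 0, 14, 19 and 12 reads on days 0 to 8, and those labelled single 3, 9, 8, 5, 2, 0, 0, 0 and 0. No library of either label had a read on day 5. On days 6 to 8 all 6 double libraries had reads (2.07 to 6.50 RPM, median 5.62) and all 6 single libraries had 0. The lowest of the double libraries, X18 on day 6, held 3 reads, the floor itself. The pooled level was at least 12.4-fold higher in double, taking 3 reads over the single libraries as the floor. On days 0 to 3 the direction was opposite, with 25 reads in the single libraries and 3 in the double ones (24 and 3 without X14 day 0).

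Dub1a, the deubiquitinase, had 106 reads. Its double libraries held 1, 6, 4, 3, 0, 4, 15, 19 and 21 reads on days 0 to 8, and its single libraries 7, 12, 4, 5, 3, 1, 1, 0 and 0. Unlike the Zscan4 genes it had as many reads in double as in single cultures on days 4 and 5, with 4 reads under each label. On days 6 to 8 the double libraries stood at 3.96 to 8.70 RPM (median 5.62), and among the single libraries 1 read was seen, in X18 on day 6 (0.62 RPM), below every double library. The ratio of 55 reads to 1 was 45.6-fold (interval 7.86 to 1830).

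Zfp352, the zinc finger gene of chromosome 4 and the member least touched by shared windows, had 109 reads. The double libraries held 2, 7, 4, 0, 0, 0, 16, 25 and 35 reads on days 0 to 8, and the single libraries 0, 5, 2, 8, 3, 0, 2, 0 and 0. Between days 3 and 5 no double library had a read. On day 8 the double libraries of both lines were close together, at 11.4 RPM in X14 and 11.3 RPM in X18, with 0 reads in both single libraries. Over days 6 to 8 the double libraries ranged from 2.76 to 11.4 RPM (median 7.85) and the single libraries from 0 to 1.24 RPM, without overlap. The ratio of 76 reads to 2 was 31.5-fold (interval 8.43 to 265). On days 0 to 3 Zfp352 was alone among the 5 in having about as many reads under both labels, 13 in double and 15 in single, with all 13 of the former in X14. Without X14 day 0 the counts were 11 and 15.

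**Figure D2:**
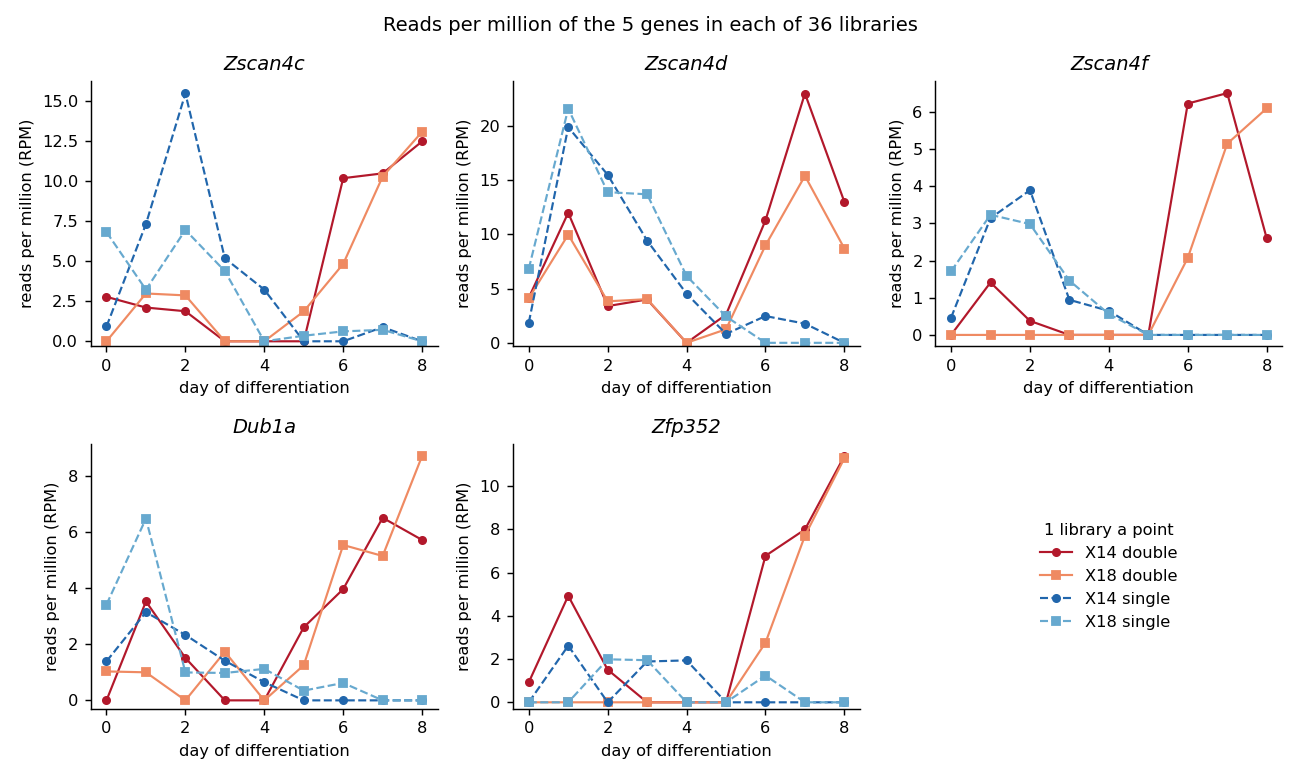
Each panel plots 1 gene, with the day of differentiation on the x axis and RPM on the y axis, and each point is 1 of 36 libraries. Red and orange solid lines are the cultures labelled double of X14 and X18, and dark and light blue dashed lines those labelled single. All 6 double libraries of days 6 to 8 lie above all 6 single libraries in every panel.

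Read together, the copies gave 3 phases. In the first, on days 0 to 3, Zscan4c, Zscan4d and Zscan4f summed to 251 reads in the 8 libraries labelled single and 89 in the 8 labelled double, or 19.9 and 7.12 RPM, a ratio of double to single of 0.359 (interval 0.278 to 0.458). Without the X14 day 0 libraries it was 0.307 (interval 0.234 to 0.400), from 74 reads in double and 244 in single. Of the 8 pairs of libraries from the same line and day, 7 were higher in single, and the exception was X14 on day 0, the pair whose X balance went against its labels. In the X18 line all 4 single libraries (15.4 to 28 RPM) stood above all 4 double libraries (4.03 to 13 RPM). In the second phase, days 4 and 5, the 3 copies fell to 7 reads in 4 double libraries and 34 in 4 single libraries. In the third, days 6 to 8, they stood at 274 reads in 6 double and 7 reads in 6 single libraries, or 29 and 0.892 RPM, a ratio of 32.5 (interval 15.6 to 81.5). Both lines showed it, with 25.7-fold in X14 (interval 10.8 to 80.1) and 46.5-fold in X18 (interval 12.5 to 390), and all 6 pairs were higher in double.

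The levels of the late double libraries were next set beside those of the early single libraries. Per exon length, Zscan4d stood at 5.53 ± 2.20 RPKM (RPM divided by the exon length in kilobases, mean ± SD, n = 6 libraries) in double on days 6 to 8 and at 5.29 ± 2.72 RPKM (n = 8) in single on days 0 to 3. The other 4 genes had higher means in late double than in early single libraries on this scale, without a test. Zscan4c stood at 4.44 ± 1.26 RPKM in late double against 2.74 ± 1.88 in early single libraries, and Zfp352 at 3.51 ± 1.41 against 0.464 ± 0.505. The order in the late double libraries was Zscan4d, Zscan4c, Dub1a (3.79 ± 1.02 RPKM), Zfp352 and Zscan4f (1.96 ± 0.802 RPKM). The ranges of neighbours in this order overlapped. The order of the Zscan4 copies also depends on where shared reads were placed.

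The make-up of the Zscan4 reads was compared between early single and late double libraries, which differ in both phase and label. Counting Zscan4b and Zscan4e, the other copies with a line in the table, brought the family to 5 lines, with 287 reads in early single and 349 in late double libraries. Zscan4d made up 53% of them in early single libraries (exact binomial interval 47% to 58.9%) and 37.8% in late double libraries (32.7% to 43.1%). Zscan4e went from 6.97% (4.31% to 10.6%) to 13.8% (10.3% to 17.8%), and Zscan4f from 8.71% (5.72% to 12.6%) to 12.9% (9.56% to 16.9%). Between these 2 groups the intervals of Zscan4d did not overlap, while those of Zscan4e and Zscan4f did. In early double libraries, with 96 reads of the family, Zscan4d made up 68.8% (58.5% to 77.8%). These shares rest on reads that can be shared between copies, and no test over libraries was made.

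On the log2 scale of the deposited values, a library without a read of a gene carries the value that 0.9 read would give, so that 2 libraries without a read differ by their depth alone. The mean of the 3 Zscan4 copies was 3.39 higher in double than in single in X14 on days 6 to 8 and 3.27 higher in X18. On days 0 to 3 the same difference was -1.23 in X14 and -1.57 in X18. Averaged over all 9 days the opposite phases nearly cancelled, leaving 0.49 in X14 and 0.34 in X18. Without the X14 day 0 libraries the mean over both lines was 0.39 over all days and -1.75 on days 0 to 3.

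**Figure D3:**
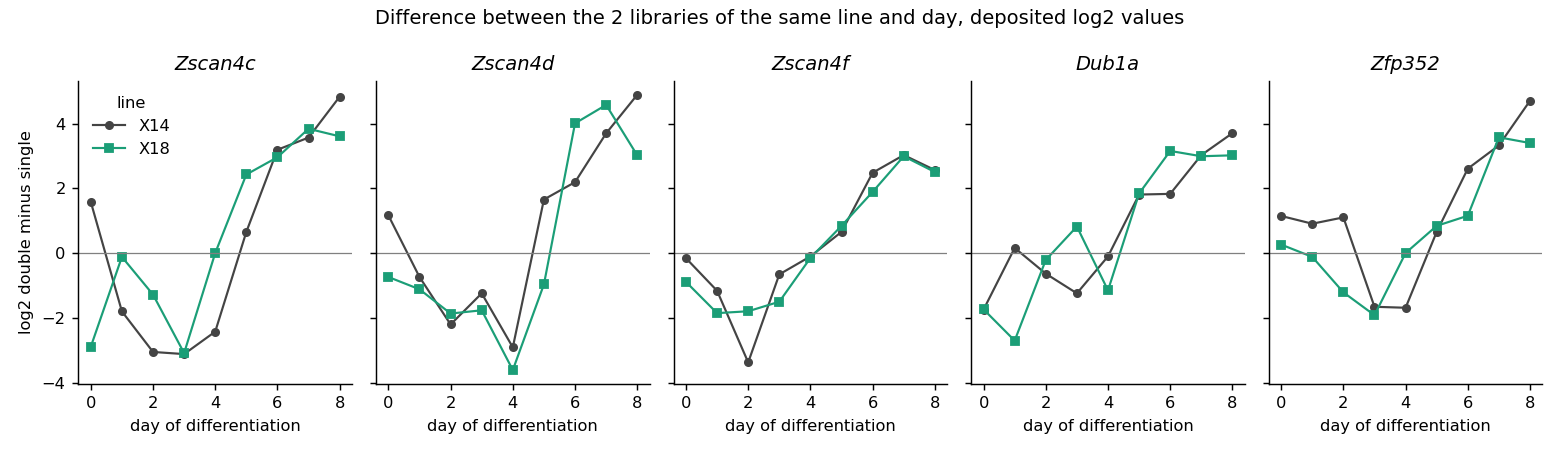
Each panel plots 1 gene, with the day of differentiation on the x axis and, on the y axis, the deposited log2 value of the library labelled double minus that of its single counterpart from the same line and day. Grey circles are line X14 and green squares line X18. On days 6 to 8 all points lie above 0 in both lines, from 1.16 to 4.89, and on days 1 to 3 all points of the 3 Zscan4 genes lie below 0.

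A contrast of late with early days, blind to the label, hid the course. The mean of the 3 Zscan4 copies on days 5 to 8 less that on days 0 to 3 was 1.79 and 1.34 in the double cultures of X14 and X18, and -2.23 and -2.88 in the single cultures, with a mean over the 4 cultures of -0.49 ± 2.40 (SD, n = 4). The sign of that mean turned with the culture left out, as it was 0.08 without X14 single and 0.30 without X18 single. Dub1a rose by 2.04 and 1.92 in the double cultures and stood at -1.41 and -1.79 in the single ones. Zfp352 gave 1.86 and 2.13 in the double and -0.58 and -0.86 in the single cultures. For each of the 5 genes both double cultures moved up and both single cultures moved down, also without the X14 day 0 libraries, when the copies gave 1.78, -2.93, 1.34 and -2.88 in X14 double, X14 single, X18 double and X18 single.

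To see whether other genes of the state took the same course, a list of 52 two-cell genes from general knowledge was used, of which 39 besides the 5 had a line in the table. Of these, 12 had no read in any library, 27 had at least 1 read, and 24 passed the filter of 1 RPM in at least 4 libraries. By pooled RPM all 27 were higher in double on days 6 to 8, with 1820 reads in the double and 126 in the single libraries over the 39 lines. Tdpoz4 (6 reads) and A530032D15Rik (1 read) had all their reads in late double libraries, so their direction was fixed. On days 0 to 3, 20 of the 27 were lower in double and 5 higher (21 and 4 without X14 day 0). No share over all genes was taken for these counts by pooled RPM, so nothing is read from them. The list and the split by period were set with results of these data in view, so the p-values that follow describe these libraries and are no independent support. Some well-known genes of the state, Dux among them, had no line under the names searched and were not analysed here.

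In limma fitted across all 14612 genes that passed the filter, 4.20% of genes were called higher in double than in single on days 6 to 8 (adjusted p under 0.05 and a log2 difference of at least 1), and 19 of the 24 list genes were. Standard errors and p-values of the fits here and below treat the days of a culture as independent libraries. They do not measure the spread between cultures. With the culture as a random replicate block, 20 of the list genes were called. Of the 24, 0 were called lower by limma and 0 by voom, while 22 had an unadjusted p under 0.05. Of them, 7 passed the filter only through the 6 late double libraries and so had to be high there. Of the 17 that passed it without those libraries, 14 were called, with 4.11% of all genes passing in the same way. The median log2 difference of the 24 was 2.62, beside -0.01 over all genes tested, and that of the 17 was 3.08, beside -0.02 over the genes passing in the same way. In 16 of the 24 genes all 6 double libraries lay above all 6 single libraries, beside 2.20% of the genes tested. This count includes genes among the 7 favoured by the filter or could do so, and it was not taken for the 17 alone. The 5 genes chosen by name were separated in the same way, and since they were chosen for it, nothing is read from that.

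Among the relatives of Dub1a, all 4 in the table were called higher in late double cultures, beside 4.20% of all genes. Dub3, the most abundant, had 148 reads in late double and 3 in late single libraries, and a log2 difference of 4.02 ± 0.47 (SE, limma adjusted p = 2.23e-06). Usp17l5 gave 3.86 ± 0.40 (limma adjusted p = 4.86e-07) and Dub2a 2.53 ± 0.38, and Dub1 had 90 reads against 2. Summed over the 5 lines of the family, 443 reads fell in late double and 7 in late single libraries, a ratio of 52.5 (interval 25.3 to 131). Of the windows of Dub1a, between 4.78% (Usp17l5 and Dub2a) and 7.21% (Dub1) occurred in one of these relatives. Sharing among the 4 relatives was not measured, so their calls cannot be counted as separate results. Dub2a, with 41 of its 48 reads in late double libraries, may be among the 7 genes that passed the filter only through them.

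Of the remaining Zscan4 copies, Zscan4e was called with 2.70 ± 0.42 (limma adjusted p = 1.32e-04). Zscan4b had 27 reads in late double and 0 in late single libraries, with a log2 difference of 1.32 ± 0.50 that missed the threshold (limma adjusted p = 0.0979). Reads of these copies are as uncertain as those of the members, as 30.1% of Zscan4e windows occurred in Zscan4f and 29.1% of Zscan4b windows in Zscan4c.

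Members of other families of the list, on other chromosomes, were also called higher in late double cultures. Tcstv1, of the 2-cell-stage variable group, had the largest estimate of the list, 4.27 ± 0.52 (limma adjusted p = 4.99e-06), from 145 reads in late double against 1 in late single libraries. AF067061 had 94 reads against 0 and Tmem92 101 against 1. The PRAME-like genes Gm13078 (Pramel24 in RefSeq) and Gm12794 (Pramel19) gave 4.15 ± 0.52 and 3.08 ± 0.42, and BC080695 gave 4.01 ± 0.51. Tdpoz1 and Tdpoz3, which code for proteins with TRAF and POZ domains, were almost absent elsewhere, with 37 and 25 reads in late double and 0 in late single libraries. Tdpoz3 had 26 reads in all, so it passed the filter only through the late double libraries and its direction was fixed. Other genes named here with few reads elsewhere may also be among the 7 that passed in that way. The genes Gm8300, Gm2016 and Gm2022 of chromosome 12 gave 3.32 ± 0.55, 2.77 ± 0.51 and 2.06 ± 0.42, and on chromosome 13 Tcstv3 and B020031M17Rik gave 2.19 ± 0.37 and 1.85 ± 0.45. Arg2, an arginase of the mitochondrion, gave 1.47 ± 0.45 (limma adjusted p = 0.0372).

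The 5 list genes that were not called were Zscan4b, Gm5662, Gm8994, B020004J07Rik and Ddit4l. Ddit4l, an inhibitor of mTOR signalling and by far the most abundant gene of the list with 1000 reads in all, had reads in every library and a log2 difference of 0.87 ± 0.28 (limma adjusted p = 0.0554). Gm8994 differed by 0.24 ± 0.49. Gm5662 had 30 reads in late double and 0 in late single libraries.

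**Figure D4:**
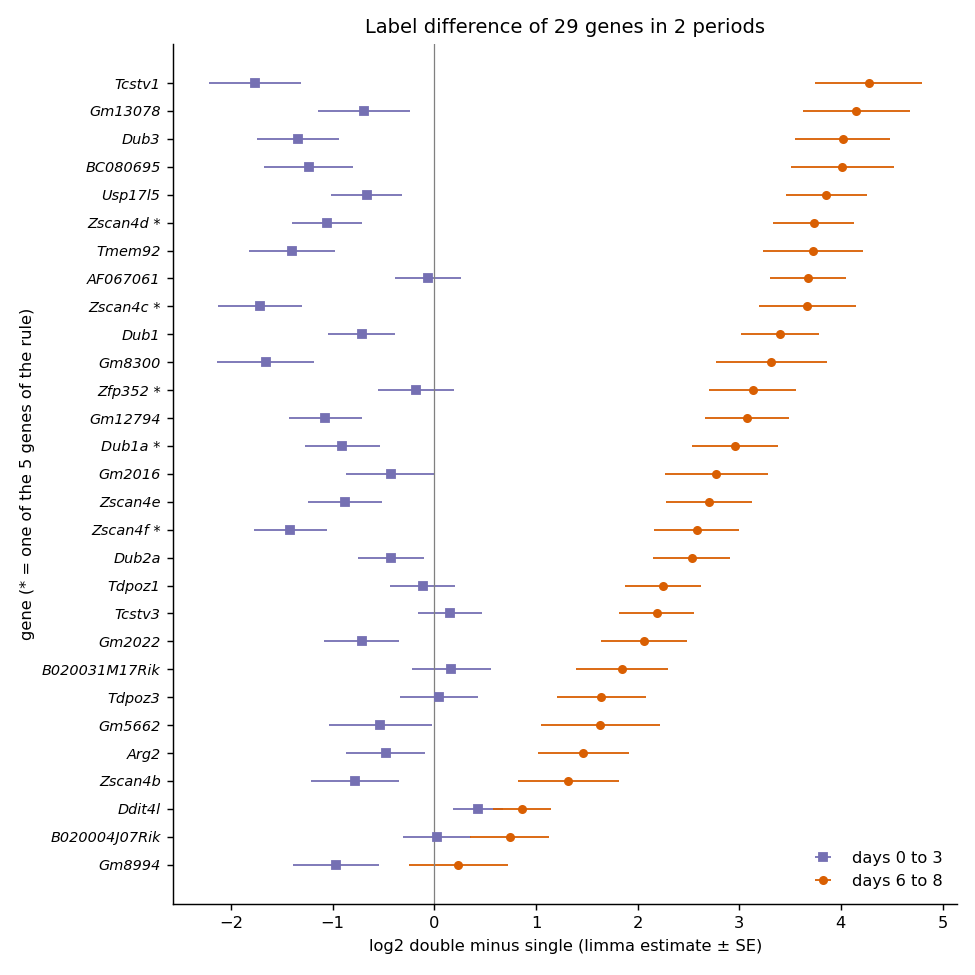
The x axis is the log2 difference of double minus single from limma with its standard error as the bar, for the 5 genes of the rule (asterisk) and the 24 list genes that passed the filter, 1 gene a row. Orange circles are days 6 to 8 and purple squares days 0 to 3. The orange points are all above 0, with a list median of 2.62, and most purple points are below 0. Of the list genes, 7 passed the filter only through the late double libraries.

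On days 0 to 3 the list leaned the other way. Its median log2 difference was -0.68, beside -0.04 over all genes (-0.76 beside -0.08 without X14 day 0), and 2 of the 24 were called lower in double (1.47% of all genes were). By limma and by voom 0 were called higher, and 9 had an unadjusted p under 0.05. The 2 were Tcstv1, at -1.77 ± 0.45 (limma adjusted p = 0.0227), and Gm8300, at -1.66 ± 0.48 (limma adjusted p = 0.0401). Without the X14 day 0 libraries 5 were called lower, but so were 4.74% of all genes, and 5 were with the culture as a random replicate block. Leaving out any 1 culture left 0 or 1.

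The change between the phases was tested as the label difference of days 6 to 8 minus that of days 0 to 3. It was called for 16 of the 24 list genes, all higher, against 2.33% of all genes in that direction, with a list median of 3.08 beside 0.06 over all genes. The 7 genes that passed the filter only through the late double libraries were bound to that direction, and of the other 17, 12 were called, beside 2.29% of the genes passing in the same way. Without the X14 day 0 libraries 19 of the 24 were called, beside 6.07% of all genes. Tcstv1 changed by 6.04 ± 0.69 (limma adjusted p = 9.43e-06), Dub3 by 5.36 ± 0.62 and BC080695 by 5.25 ± 0.67. Within the double cultures, days 6 to 8 were higher than days 4 and 5 in 21 of the 24, against 16.3% of all genes, with a list median of 2.75. Of the 17 genes free of the late double libraries in the filter, 15 were called, beside 16.2%, with a median of 3.29.

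Fits that average over the phases called few of these genes. Late against early days gave 1 list gene higher, AF067061, at 1.46 ± 0.45 (limma adjusted p = 0.00556), and 1 lower, Gm2016, at -1.04 ± 0.42 (limma adjusted p = 0.0307), beside 19.4% and 9.51% of all genes. Day 8 against day 0 gave AF067061 and Tdpoz1 higher and none lower, beside 23.9%. Double against single over all 9 days gave AF067061 alone (1.36 ± 0.36, limma adjusted p = 0.0093), beside 2.05%, and 3 genes with the culture as a random replicate block or without the X14 day 0 libraries. With any 1 culture left out, 0 were called. In that contrast 23 of the 24 list genes had an estimate above 0, with a list median of 0.69 beside -0.05 over all genes. The share of all genes above 0 was not taken. The 24 include the 7 genes that passed the filter only through the late double libraries, so nothing is read from this count.

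Among 5 genes known to promote the state, Dppa2 and Gata2 were called higher in late double cultures, beside 4.20% of all genes. The list was set with results of these data in view, so the p-values describe these libraries and are no independent support. Dppa2, a chromatin protein that acts with Dppa4 on early embryonic promoters, stood at 20.4 ± 15.8 RPM (SD, n = 6) in double and 5.27 ± 6.17 RPM in single on days 6 to 8 (log2 difference 2.27 ± 0.27 SE, limma adjusted p = 2.83e-06). Both levels were far under those of days 0 to 3, when pooled reads gave 126 RPM in double and 107 RPM in single, and the late-to-early change was -3.63 ± 0.30 (limma adjusted p = 1.31e-12). Gata2, a transcription factor of blood and trophoblast, rose to 93.5 ± 86.6 RPM in late double and 20.8 ± 24.2 RPM in late single libraries (2.29 ± 0.52, limma adjusted p = 0.00552). Dppa4 gave 0.62 ± 0.18 and did not reach the set size. Whsc2 (Nelfa), a subunit of the negative elongation factor, and Top2a, topoisomerase II alpha, gave 0.23 ± 0.23 and -0.32 ± 0.17.

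Genes known to hold the state down were set beside all genes in the late contrast of the labels. Of 28 repressor genes 0 were called by limma on days 6 to 8, beside 4.20% of all genes called higher in double and 1.18% lower. A count of 0 in 28 lies near these shares, so nothing is read from it. The median was -0.16, while 1 gene was called lower by voom and 5 had an unadjusted p under 0.05. Estimates of 10 of the 28 were above 0, and those of others, such as Trim28 (-0.55 ± 0.19) and Hdac2 (-0.47 ± 0.13), were below 0. Over time, 2 of the 28 rose and 2 fell between early and late days, beside 19.4% and 9.51% of all genes. With counts this small the difference from these shares was not tested, and nothing is read from it. Lin28a, an RNA-binding protein, rose by 2.26 ± 0.29 and Smchd1, a chromatin protein of the inactive X, by 1.08 ± 0.19, while Trim28, the corepressor of zinc finger proteins, fell by 1.07 and Hdac1, a histone deacetylase, fell by 1.05 (limma adjusted p = 3.57e-08, 8.18e-06, 1.42e-08 and 8.43e-11). Of 11 telomere genes, 0 were called on days 6 to 8, beside 4.20% of all genes higher and 1.18% lower. Between late and early days 0 were called, beside 19.4% and 9.51%. Both counts were the same by limma and by voom, while 2 and 8 of the 11 had an unadjusted p under 0.05. Between day 8 and day 0, 1 was called higher and 4 lower, beside 23.9% and 11.1% of all genes. Dkc1, the dyskerin of the telomerase complex, fell by 1.97, Pot1b by 1.96 and Rif1 by 1.22, the gene of the shelterin protein Terf1 was also called lower, and Acd, the shelterin protein TPP1, rose by 1.23.

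Marker lists of cell types also moved with the label late, and their part in the result was not tested. Beside each count that follows stand 4.20% of all genes called higher and 1.18% called lower in double on days 6 to 8. Of 10 naive pluripotency markers 6 were higher, with a median of 1.15, among them Klf2 (29.1 ± 9.01 against 7.65 ± 2.31 RPM, SD, n = 6) and Tbx3 (25.7 ± 11.1 against 5.49 ± 3.62 RPM). Pou5f1 and Nanog, core factors of pluripotency, had estimates in the other direction, -0.68 ± 0.17 and -0.78 ± 0.15 (limma adjusted p = 0.012 and 9.34e-04), which missed the call by size alone. The summed level of the 10 overlapped, at 442 to 1440 RPM in double and 631 to 1320 RPM in single. Of 6 trophoblast markers 5 were tested, 3 were higher (Hand1, Krt7 and Tfap2c) and Eomes was lower, with summed levels of 267 to 790 RPM in double and 92.3 to 445 RPM in single. Among 6 germ cell markers Dazl and Mael were higher, with summed levels of 49.3 to 120 RPM against 28.2 to 69.5 RPM. For primitive endoderm, fibroblast and neural markers 0 genes were called by limma, 3, 1 and 1 had an unadjusted p under 0.05, and voom called 1 fibroblast marker higher, with Sox7, Lum and Sox1 being at 0 reads under both labels, and the summed levels overlapped (11.3 to 47.2 against 18.5 to 88.4 RPM, 11.7 to 54.5 against 14.3 to 77.3 RPM, and 66.8 to 149 against 58.3 to 331 RPM).

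**Figure D5:**
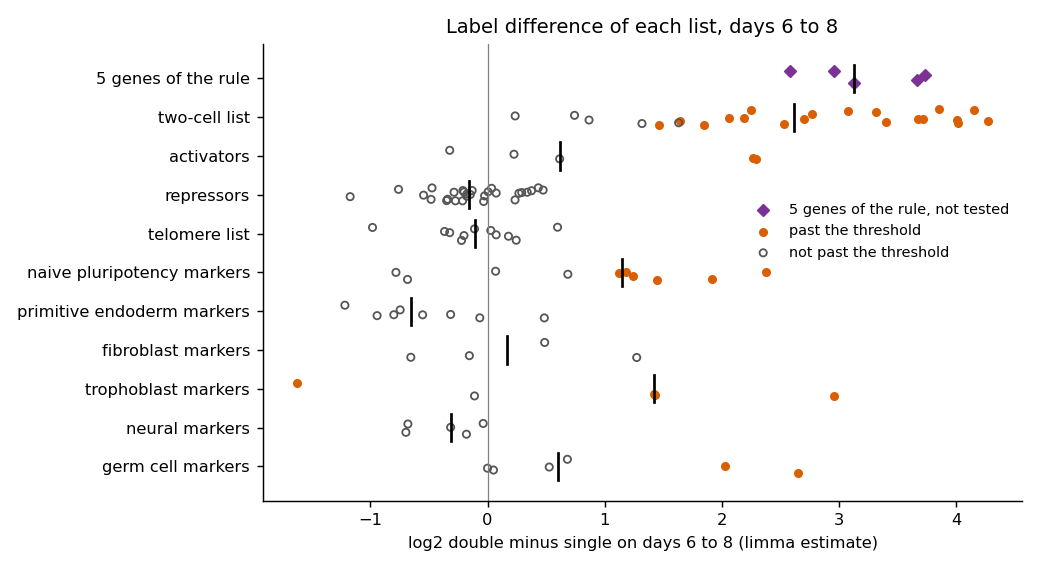
Each point is 1 gene and each row 1 list, with the limma log2 difference of double minus single on days 6 to 8 on the x axis and a black bar at the median. Filled orange points passed the threshold, open points did not, and the purple diamonds are the 5 genes of the rule, which were not tested. Among the lists the two-cell list lies furthest to the right with a median of 2.62, and the repressor and telomere lists have medians of -0.16 and -0.11. In the two-cell list, 7 genes passed the filter only through the late double libraries.

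Which genes had a pattern most like the Zscan4 copies was asked of the 10342 genes with at least 10 reads per library on average, which leaves out most of the two-cell genes themselves. Over the 36 libraries the highest Pearson correlations with the mean of the 3 copies were moderate, at 0.64 for Whamm, 0.62 for Galk2, 0.61 for Cenpt and 0.60 for Ift46 and Nudt22, followed by Tfeb, Kank3, Tmem102, Smarcd3 and Zfp64 (0.56). After the mean of each day was taken out they rose to 0.79 for H19, the imprinted non-coding RNA, 0.75 for Akr1b8 and Gm13154, 0.74 for Plac1 and 0.72 for Tex14, followed by Ppp2r5c, Cldn4, Stk10, Gm11019 and Ddx4 (0.69). H19 stood at 13000 RPM in late double and 3980 RPM in late single libraries, and Plac1, a placental gene on the X chromosome, at 144 and 25.9 RPM. For Dub1a the nearest were Nudt22 (0.81), H19 (0.78) and 2410076I21Rik (0.76) by deviations, and Nudt22, Tbc1d10a and Ppp2r5c by values (0.68, 0.62 and 0.58). For Zfp352 they were Hsf2bp (0.74), Gm13154 (0.74) and Zfp534 (0.72) by deviations, and Napa, Obfc2a and Esx1 by values (0.67, 0.67 and 0.64). Among the 5 genes themselves, correlations of values ranged from 0.62 (Zscan4d with Zfp352) to 0.84 (Zscan4c with Zscan4f). The points share lines, days and libraries, and values near the floor move with depth, so these figures are descriptions.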

How the data were processed

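Xmas mESC lines were sampled daily, and the study's methods name TruSeq libraries and single-end NextSeq500 reads of 75 bases for C57/Bl6 samples, trimming with trim_galore, alignment to mm10 (TopHat2 2.0.12 in the submitters' processing notes) and SeqMonk quantitation. The deposited values are log2 values that the authors scaled to the library size (RPM) and, as the values show, to exon length in kilobases, with a gene without a read written as 0.9 read. From these, whole reads were recovered for 100% of values (tolerance 0.02 read). Strand, annotation version and the treatment of multiple alignments are not given in the sources used here.

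Tests used limma 3.58.1 (R 4.3.3, trended variance, Benjamini-Hochberg over all genes) on the deposited log2 values of 14612 genes at 1 RPM or more in at least 4 libraries. Time contrasts used a factor for day. The contrast over all days added line and label, and those by period used day by label with line. None of these main fits held a block for the culture, so the days of a culture counted as independent libraries. Calls needed adjusted p under 0.05 and a log2 difference of at least 1. The members, lists and tests were chosen with earlier results of these data known, and the contrasts by period after their values were seen, so no adjusted p is given for the members. Named genes were the members, two-cell list and activator genes with 3 reads in at least 4 libraries, the 3 most changed repressor and telomere genes per contrast, and those most correlated. List genes outside this rule were named after their values were seen. Libraries with the same number share a line and a label and are called 1 culture here. Their deviations from the day mean correlated at 0.089 to 0.166 on average, against -0.042 for different numbers. Counts of a gene family share reads. Fits were tested on simulated data.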

Additional observations from a re-analysis of the deposited data

Results flagged for a closer look

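All 5 genes rose from days 0 to 3 to days 5 to 8 in both cultures labelled double and fell in both labelled single, and the difference between these changes was not tested for them. On the log2 scale, the mean change in double cultures less that in single cultures was 4.85 for Zscan4c, 3.95 for Zscan4d, 3.54 for Zscan4f, 3.58 for Dub1a and 2.72 for Zfp352. For the two-cell list, the label difference of days 6 to 8 minus that of days 0 to 3 was called for 16 of 24 genes by limma. Beside this stand 2.33% of all genes called in that direction. Of the 24, 7 passed the filter only through the late double libraries and were bound to that direction. Among the other 17, 12 were called, beside 2.29% of the genes passing in the same way.

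In 43 groups of 4 libraries of the same day, 1 library stood apart from the other 3 in 3 cases, all of them a single library with reads beside 3 without. Zscan4c on day 4 was at 3.23 RPM in X14 single, Zfp352 on day 4 at 1.94 RPM in the same library, and Zfp352 on day 0 at 0.925 RPM in X14 double. The rule is set to mark about 1 in 20 groups by chance, but a group with reads in 1 library alone is always marked. That rate therefore does not hold here, and nothing is read from these cases. Each of these values rests on 5 reads or fewer.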

How the results depend on the processing

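Depth limits these genes, since the floor of 3 reads was 1.04 to 3.90 RPM. Counts of called two-cell list genes were steady for the late label difference (19; 15 to 22 over all alternatives, 15 to 17 with 1 culture left out) and the change between phases (16; 11 to 22), and 17 to 22 for days 6 to 8 against 4 and 5 in double cultures (21). A culture left out leaves 1 line for its label, which is then assumed to vary like the others. The counts in these by-period contrasts are over 24 genes, with the 7 that passed the filter only through the late double libraries. No alternative was run on the other 17, so part of the steadiness may come from the filter. Over all genes, the late label difference was called for 787 as reported and 980 with quantile normalization. The other counts were small and moved. Late against early gave 2, but 6 with no minimum fold change and with voom, 1 with log2 of RPM plus 1, and 2 to 7 with 1 culture left out (7 without either single culture). With quantile normalization and without either double culture the total stayed at 2, but as 0 higher and 2 lower, so that AF067061 was not called higher. Day 8 against day 0 gave 2, but 1 without a filter, with voom and with RPM plus 1, 1 in the lower direction under 75th percentile scaling and under quantile normalization, and 0 to 5 with 1 culture left out (1 lower without replicate 1). Double against single over all days gave 1, but 3 with no minimum fold change, without the X14 day 0 libraries, without day 0 and with the replicate block, 5 with voom, and 0 in either line alone or with any culture left out. On days 0 to 3 it gave 2, but 1 with quantile normalization, 5 without the X14 day 0 libraries and 5 with the replicate block, and 0 to 1 with 1 culture left out. The fixed replicate block gave 2 for late against early and 3 for day 8 against day 0. For the Zscan4 copies, late minus early (-0.49) ranged from -1.25 to 0.30 with 1 culture left out and was 0.08 without replicate 2. Double minus single (0.42) was 0.27 with RPM plus 1, with 0.34 to 0.49 by line. It was -1.75 on days 0 to 3 without the X14 day 0 libraries, and on days 6 to 8 (3.33) 3.19 with quantile normalization, 2.90 with RPM plus 1 and 3.97 on summed RPM. Late minus early reversed for Zscan4c without replicate 2 (0.34) or 4 (0.44), from a lowest value of -1.24. It reversed for Zscan4f with quantile normalization (-0.23) and without replicate 1 (-0.44) or 3 (-0.17), with 1.02 at most, and for Dub1a likewise (-0.23, -0.43 and -0.39, with 0.85 at most). The causes were not tested.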
